A study of Mus musculus with 35 samples.

Results

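The TAM family is a group of receptor tyrosine kinases, TYRO3, AXL and MERTK, that are switched on by the bridging ligands GAS6 and PROS1. Described here are the 5 genes of this system, Mertk, Axl, Tyro3, Gas6 and Pros1, chosen by symbol and not by any measured value. All 5 were found among the 25655 genes of each of the authors' 8 deposited comparison tables, and all 5 had a deposited FDR p-value in every table. GAS6 and PROS1 bind phosphatidylserine on dying cells or shed membrane through a domain whose glutamates are carboxylated with vitamin K, and present that membrane to the receptors on a phagocyte. GAS6 activates all members of the family, and PROS1, better known as the anticoagulant protein S of plasma, activates TYRO3 and MERTK. In the eye MERTK is known for the daily uptake of photoreceptor outer segment tips by the pigment epithelium, and in immune cells TAM signalling damps responses to interferon and Toll-like receptors through SOCS proteins.

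Messenger RNA was measured in retinas of wild-type mice in 35 samples and 7 groups. Non-diabetic retina (ND, 6 samples) was the reference, and diabetic retina was taken at 6, 8 and 10 weeks (D6, D8 and D10, 5 samples each). D8 and D10 carry the label PBS, which ND and D6 do not. Microglia were depleted for 2 weeks in D8 depleted (4 samples), and returned for 2 more weeks in D10 repopulated and ND repopulated (5 samples each). The labels name the depleting agent DTx and the series text names PLX-5622, without a source here that settles which, so only depletion is said. The labels do not give age, sex or the way diabetes was induced, nor whether the samples came from different animals, so p-values measure only the spread between samples.

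The values are the authors' own comparisons, which give for each gene a log2 fold change, its p-value and one group mean, that of the higher group. Values per sample and depth were not analysed here, and a gene counts as called where the authors' FDR p-value was under 0.05. The error given in brackets after a log2 value is the standard error implied by the deposited p-value. All 6 rod markers and all 4 cone markers had a deposited FDR p-value in each of the 8 tables. All 10 microglial markers fell in D8 depleted against D8 (median log2 -5.23), 4 of 10 fell in D10 repopulated against D10 (median -1.07), and 0 of 10 were called in ND repopulated against ND. That last table called 24 of 15402 genes in all. Of all tested genes, 4.90% fell in D8 depleted against D8 and 0.267% in D10 repopulated against D10. Lens and blood markers also moved: 6 of 6 lens markers were lower in D8 depleted against ND (median log2 -8.00) and 5 of 5 blood markers in D10 against ND (median -3.36). The numbers in the sample titles of D8 and D10 form a run apart from those of the other 5 groups, so contrasts of D8 or D10 with those 5 groups cannot be told apart from that run or from PBS. In whole retina fewer cells of a type and less RNA per cell cannot be told apart.

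Among the ligands Pros1 was higher in every diabetic group than in ND, whereas Gas6 was called in none of the 8 tables. The group mean of Pros1 in the authors' deposited tables was 3.25 in ND repopulated, 5.84 in D8, 7.71 in D8 depleted, 8.86 in D6, 9.57 in D10 repopulated and 9.64 in D10. ND was the smaller mean in all 6 of its tables, which give only an implied value for it, with a median of 2.66 (2.53 to 2.72 over the tables). Both non-diabetic groups therefore lay below all 5 diabetic groups. Against ND, Pros1 rose 3.51-fold in D6 (log2 1.81, 0.26; FDR p = 7.97e-10), 2.18-fold in D8 (1.13, 0.26; FDR p = 0.00128) and 3.63-fold in D10 (1.86, 0.26; FDR p = 1.34e-10) in the authors' deposited tables. It also rose in D8 depleted (log2 1.50, 0.28; FDR p = 2.3e-06) and in D10 repopulated (1.85, 0.26; FDR p = 1.77e-10) in the authors' deposited tables. These 5 comparisons share the ND samples, so their rises are not independent of each other.

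The level of Pros1 at 8 weeks stood below those at 6 and 10 weeks, but the difference did not pass the test. Differences between tables were tested with a normal test on added variances, adjusted over all genes, and are given with their 95% intervals. D8 minus D6 was -0.68 (-1.40 to 0.03) and D10 minus D8 was 0.73 (0.01 to 1.45), and neither passed an adjusted p of 0.05. Depletion and repopulation left no called difference in Pros1. The log2 value was 0.37 in D8 depleted against D8, with a 95% interval from -0.15 to 0.89, and -0.01 in D10 repopulated against D10, with an interval from -0.44 to 0.42, both from the authors' deposited tables. In non-diabetic retina it was 0.31 after repopulation, with an interval from -0.20 to 0.82 in the authors' deposited table. Markers of infiltrating monocytes were higher in 2 of 5 cases in D6 against ND, 0 of 5 in D8 and 4 of 5 in D10. Astrocyte markers were higher in 2, 1 and 1 of 4 cases at these times and lower in none. Muller glia markers were higher in 2, 0 and 1 of 9 cases and lower in 3, 0 and 3, with a median log2 of -0.26, -0.22 and -0.09. Of all tested genes 14.1%, 2.33% and 5.59% were higher at these times, and 9.31%, 0.583% and 1.41% lower. The part of these cell types in the Pros1 values was not tested.

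Gas6 showed narrow intervals around 0. Its group mean in the authors' deposited tables was 76.96 in ND, 77.18 in ND repopulated and 85.7 in D8 depleted. For D10 the mean was 75.8 in the authors' deposited table, assigned to that group by the sign of a log2 value of -0.02 in D10 repopulated against D10. The means of D10 repopulated and D8 were the smaller ones of their tables and are implied at 74.3 and 72.2, so these 6 groups spanned 72.2 to 85.7. The log2 fold change was 0.03 in D6 against ND, -0.12 in D8 and -0.04 in D10, with standard errors of 0.13 each in the authors' deposited tables. In D6 the fold change lay above 0 although the higher mean in the authors' deposited table was that of ND, so no mean is given for D6 and levels this close give no order of the groups. The 95% intervals of these comparisons ran from -0.37 at the lowest to 0.28 at the highest. The largest value was that of depletion, log2 0.22 in D8 depleted against D8 (0.12; FDR p = 0.25) in the authors' deposited table. Its 95% interval ran from -0.02 to 0.47, so most of it lay above 0. Gas6 overlaps Tmem255b, which lies on the opposite strand and reached a group mean of at most 2.80 in the authors' deposited tables.

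Pros1 lies at chr16:62674670-62749709 on the plus strand and Gas6 at chr8:13515374-13544490 on the minus strand, in GRCm39 coordinates from the files. Their promoters are shown because one ligand gene rose in every diabetic group and the other did not. Each sequence is the 250 bases before the gene's start in RefSeq, on the gene's strand, in the build GRCm38.p6, whose coordinates are not those of the files. Pros1 is read from chr16:62854057-62854306 and Gas6 from chr8:13494536-13494785. Capitals mark each match to the GC box GGGCGG and to the STAT motif GAS, TTCNNNGAA, on either strand.
Pros1: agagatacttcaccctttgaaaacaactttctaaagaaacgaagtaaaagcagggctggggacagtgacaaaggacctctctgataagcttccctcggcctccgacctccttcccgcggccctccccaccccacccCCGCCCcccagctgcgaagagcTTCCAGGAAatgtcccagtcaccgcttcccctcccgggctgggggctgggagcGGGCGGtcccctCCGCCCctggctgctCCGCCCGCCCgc
Gas6: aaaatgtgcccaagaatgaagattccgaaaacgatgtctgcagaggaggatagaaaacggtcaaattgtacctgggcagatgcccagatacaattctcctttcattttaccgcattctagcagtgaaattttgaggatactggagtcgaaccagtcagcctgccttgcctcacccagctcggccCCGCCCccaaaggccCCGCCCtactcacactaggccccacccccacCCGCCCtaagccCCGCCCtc
The Pros1 promoter held 1 match to the GAS motif, TTCCAGGAA, starting 92 bases before the gene's start, and Gas6 held none. Of 32851 promoter windows of this length 7.02% hold a match to TTCNNNGAA, and 0.913% hold one to the narrower TTCCNGGAA, which this match also fits. GC boxes were found 5 times in Pros1 and 4 times in Gas6, and 32.7% of all windows hold at least 1. No match to the AP-1 motif TGANTCA, held by 6.75% of all windows, was found in any of the 5 TAM promoters. The motifs named were picked after the matches were seen, from 22 that were tried, and a match is a description of letters, not of binding.

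**Figure D1:**
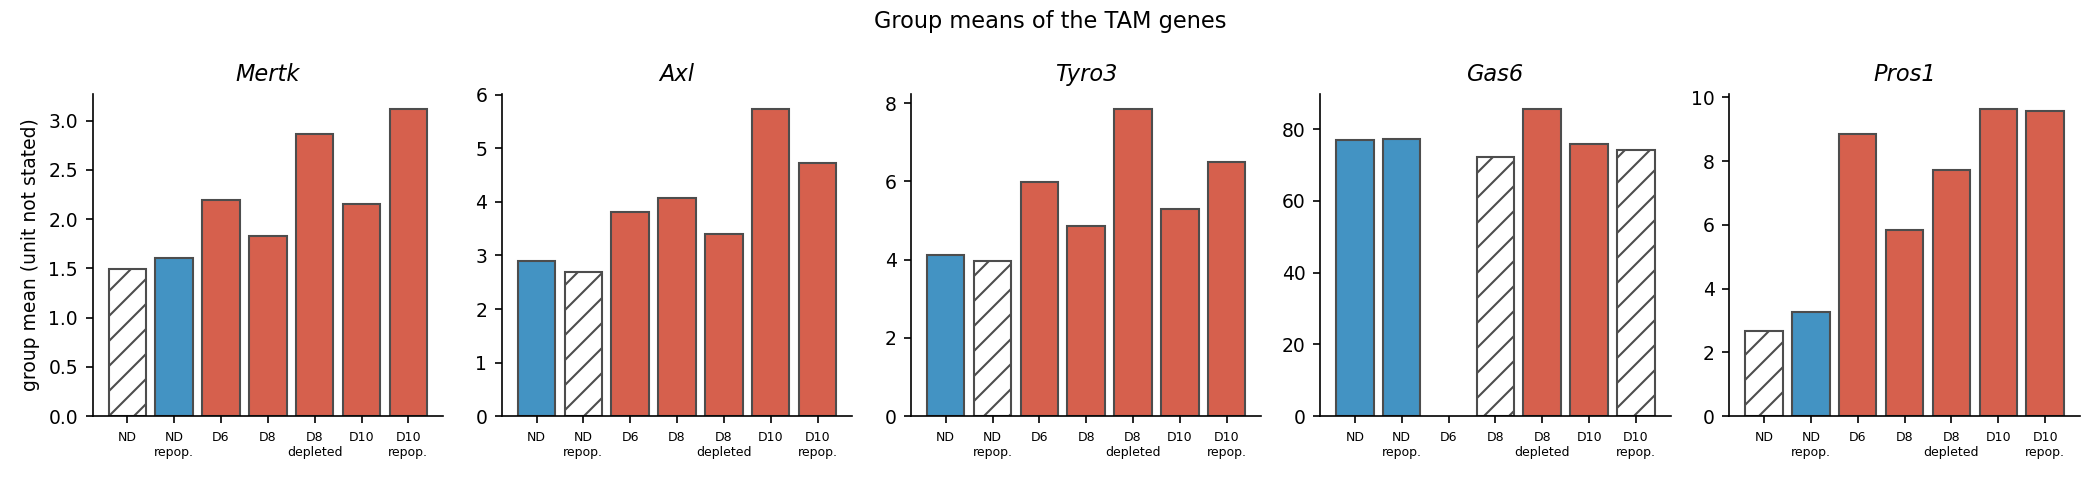
Group mean of each TAM gene (vertical axis, in the authors' unit, which is not stated) in the 7 groups. Filled bars are deposited means (blue non-diabetic, red diabetic), hatched bars are means implied by the other group's mean and the fold change, Gas6 has no bar for D6, and no spread is shown because values per sample were not used. Pros1 runs from 2.66 in ND to 9.64 in D10, while Gas6 stays between 72.2 and 85.7.

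Of the receptors, Tyro3 was called after depletion within diabetic retina. TYRO3 is the TAM receptor most typical of neurons. Its gene lies at chr2:119628214-119648585 on the plus strand of GRCm39. The group mean of Tyro3 in the authors' deposited tables was 7.86 in D8 depleted, 6.50 in D10 repopulated, 5.98 in D6, 5.30 in D10, 4.87 in D8 and 4.11 in ND. For ND repopulated it is implied at 3.96. The depleted group stood highest and both non-diabetic groups lowest. Tyro3 rose 1.59-fold in D8 depleted against D8 (log2 0.66, 0.14; FDR p = 0.000305) in the authors' deposited table. Against ND it rose in D6 (log2 0.59, 0.15; FDR p = 0.000927), in D8 depleted (0.89, 0.16; FDR p = 7.8e-07) and in D10 repopulated (0.65, 0.15; FDR p = 0.000347) in the authors' deposited tables. At 8 and 10 weeks without depletion the values were 0.22 (FDR p = 0.66) and 0.35 (FDR p = 0.16) in the authors' deposited tables.

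In D10 repopulated against D10 the log2 value of Tyro3 was 0.29, with a 95% interval from -0.02 to 0.60 in the authors' deposited table. Repopulation minus depletion gave a difference of -0.37 (-0.79 to 0.04), which did not pass. The log2 difference of D10 repopulated from D8 depleted was -0.24 (-0.66 to 0.18), which did not pass. In ND repopulated against ND the value was -0.05, with an interval from -0.34 to 0.24 in the authors' deposited table. Between diabetic and non-diabetic retina the response of Tyro3 to repopulation differed by 0.34 (-0.08 to 0.77), which did not pass.

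Mertk lies at chr2:128540876-128644814 on the plus strand of GRCm39. Its group mean in the authors' deposited tables was 3.12 in D10 repopulated, 2.87 in D8 depleted, 2.20 in D6, 2.16 in D10, 1.83 in D8 and 1.60 in ND repopulated. ND was the smaller mean in each table, implied at a median of 1.49 (1.44 to 1.53). The depleted and the repopulated diabetic groups were the highest of the 7, and the non-diabetic groups the lowest. Against ND, Mertk rose 1.53-fold in D6 (log2 0.61, 0.16; FDR p = 0.00135) and 1.44-fold in D10 (0.53, 0.16; FDR p = 0.0143) in the authors' deposited tables. It rose 1.88-fold in D8 depleted (log2 0.91, 0.17; FDR p = 1.9e-06) and 2.10-fold in D10 repopulated (1.07, 0.16; FDR p = 1.17e-09) in the authors' deposited tables. In D8 it was not called (log2 0.28, 0.16; FDR p = 0.54) in the authors' deposited table.

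Within diabetic retina Mertk had log2 values above 0 with depletion and with repopulation that did not pass. In D8 depleted against D8 the log2 value was 0.63 (0.23; FDR p = 0.0518) in the authors' deposited table. With values centred on the median of the genes of higher level it passed. In D10 repopulated against D10 the log2 value was 0.53 (0.17; FDR p = 0.16) in the authors' deposited table, where 75 of 16826 genes were called. ND repopulated against ND gave 0.12, with an interval from -0.19 to 0.43 in the authors' deposited table. The response to repopulation in diabetic retina minus that in non-diabetic retina was 0.42 (-0.04 to 0.87), which did not pass.

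Pigment epithelium markers were called in the contrasts within diabetic retina where Mertk did not pass. In D8 depleted against D8, 6 of 10 were higher and 0 lower, with a median log2 of 1.13, beside 5.85% and 4.90% of all genes. Ttr, a thyroid hormone carrier made by that layer, was higher there by log2 1.72 in the authors' deposited table. In D10 repopulated against D10, 3 of 10 were higher and 1 lower (median 0.96), beside 0.178% and 0.267% of all genes. The part of the pigment epithelium in the Mertk values was not tested. In ND repopulated against ND the marker median was 0.71 with 0 of 10 called, beside the Mertk value of 0.12. In D10 against ND the median was 0.07 beside 0.53, and in D8 against ND -0.36 beside 0.28. It was 0.54 beside 0.61 in D6, 0.86 beside 0.91 in D8 depleted and 1.02 beside 1.07 in D10 repopulated, each against ND. In these comparisons only 1, 2 and 3 of the 10 markers were called higher, beside 14.1%, 15.5% and 7.49% of all genes. These Mertk values are from the authors' deposited tables.

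The promoters of Mertk and Tyro3 are shown because both genes were highest in diabetic groups that had undergone depletion. ND repopulated, which had also undergone depletion, was not among the highest for either gene. The sequences are again the 250 bases before the start in RefSeq, GRCm38.p6, on the plus strand, with GC boxes in capitals. Mertk is read from chr2:128698665-128698914 and Tyro3 from chr2:119799264-119799513.
Mertk: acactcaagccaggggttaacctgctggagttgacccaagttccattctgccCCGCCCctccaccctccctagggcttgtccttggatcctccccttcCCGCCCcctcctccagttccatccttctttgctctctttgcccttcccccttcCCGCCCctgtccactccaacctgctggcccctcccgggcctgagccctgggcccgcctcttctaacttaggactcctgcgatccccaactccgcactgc
Tyro3: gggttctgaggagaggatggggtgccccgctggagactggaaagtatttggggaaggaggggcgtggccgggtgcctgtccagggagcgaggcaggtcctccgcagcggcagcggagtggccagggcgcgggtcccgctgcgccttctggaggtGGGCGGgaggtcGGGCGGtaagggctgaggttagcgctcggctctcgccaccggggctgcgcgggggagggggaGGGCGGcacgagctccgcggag
Each held 3 GC boxes, on the minus strand in Mertk and on the plus strand in Tyro3, and neither held a GAS match. The share of G and C was 63.6% in Mertk and 73.2% in Tyro3, beside a median of 52.4% over all windows.

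Axl had its highest level at 10 weeks of diabetes. AXL is a receptor of macrophages, dendritic cells and vessels that interferon raises in myeloid cells. Axl lies at chr7:25456698-25488130 on the minus strand of GRCm39. Its group mean in the authors' deposited tables was 5.74 in D10, 4.74 in D10 repopulated, 4.08 in D8, 3.82 in D6, 3.40 in D8 depleted and 2.89 in ND. For ND repopulated it is implied at 2.70. Against ND, Axl rose 1.35-fold in D6 (log2 0.44, 0.16; FDR p = 0.0291), 1.96-fold in D10 (0.97, 0.16; FDR p = 5.2e-08) and 1.63-fold in D10 repopulated (0.70, 0.16; FDR p = 0.000266) in the authors' deposited tables. In D8 it was 0.47 (0.16; FDR p = 0.081) and in D8 depleted 0.19 (0.17; FDR p = 0.42) in the authors' deposited tables, where neither passed.

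The values of Axl with depletion and with repopulation lay below 0, the opposite side from Tyro3 and Mertk, but did not pass. The log2 value was -0.29 in D8 depleted against D8, with a 95% interval from -0.64 to 0.07, and -0.27 in D10 repopulated against D10, from -0.56 to 0.01, both from the authors' deposited tables. D10 repopulated minus D8 depleted was 0.51 (0.06 to 0.96) and D10 minus D6 was 0.54 (0.10 to 0.97), and neither passed. Both passed once the error shared through ND was taken off, an alternative chosen after the data were seen, under which 11.3% and 3.25% of all genes passed. Border macrophage markers fell in 2 of 5 cases with depletion against D8 (median log2 -3.09) and microglial markers in 10 of 10. Endothelial markers fell in 2 of 8 there (median -0.27), where 4.90% of all genes fell. The part of these cell types in the Axl value was not tested.

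**Figure D2:**
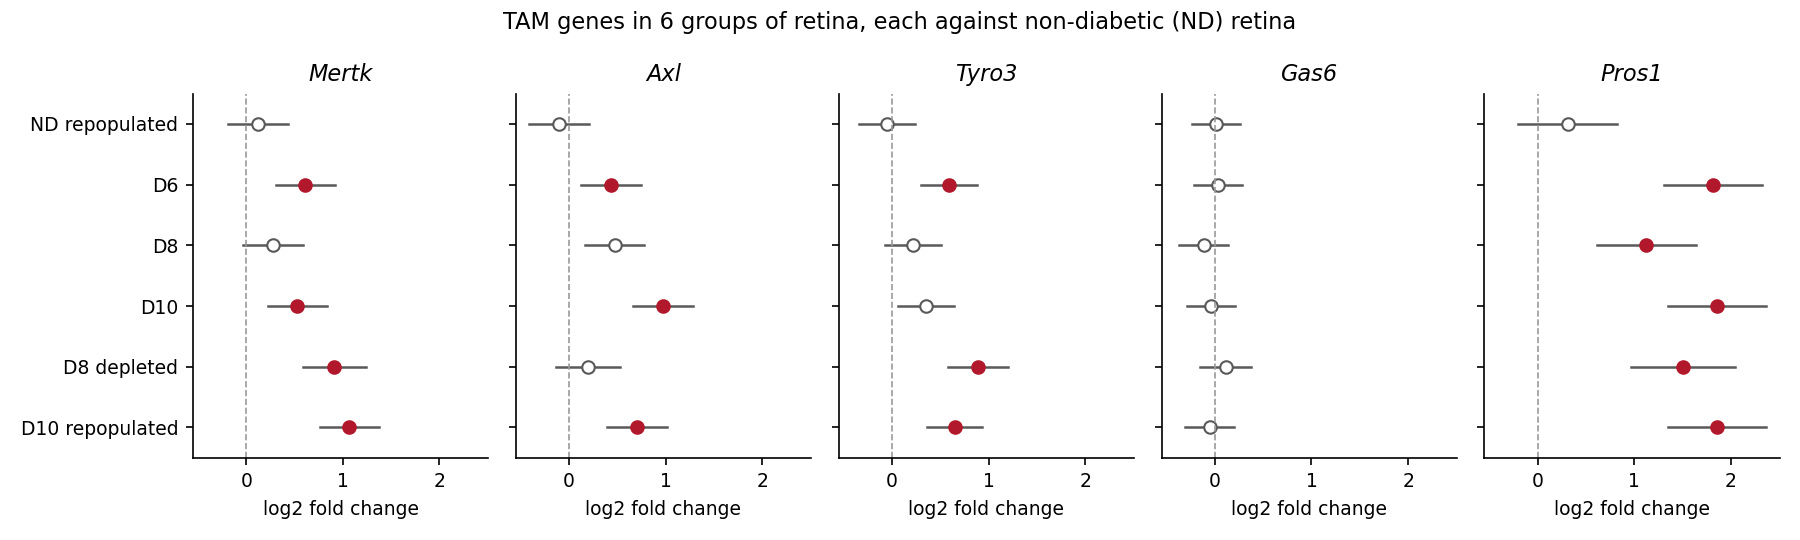
Log2 fold change (horizontal axis) of each TAM gene in 6 groups against ND, with 95% intervals from the implied standard error. Red points passed the authors' FDR p-value of 0.05 and white points did not. Pros1 is red in all 5 diabetic groups, from 1.13 to 1.86, and Gas6 is white throughout.

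Counted together, 1 to 4 of the 5 genes were higher in each diabetic group than in ND, and none was called lower in any table. In D6 against ND 4 of 5 were higher, where 14.1% of all tested genes were higher. In D8 it was 1 of 5 (2.33% of all genes) and in D10 3 of 5 (5.59%). D8 depleted against ND had 3 of 5 higher (15.5%) and D10 repopulated against ND 4 of 5 (7.49%). Depletion within diabetic retina gave 1 of 5 (5.85%), repopulation against D10 0 of 5 (0.178%), and ND repopulated against ND 0 of 5 (0.0844%). By unadjusted p under 0.05, 1 gene, Mertk, passed in D10 repopulated against D10, as did 7.27% of all tested genes, and 0 in ND repopulated against ND, where 2.48% did. The median log2 of the 5 genes was 0.59, 0.28 and 0.53 in D6, D8 and D10 against ND, 0.37 in D8 depleted against D8 and -0.01 in D10 repopulated against D10. Over all tested genes these medians lay between -0.00095 and 0.04.

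Diabetes among retinas that had all undergone depletion and repopulation gave a comparison built without a table of its own. D10 repopulated minus ND repopulated, from the tables of each against ND, was higher for 4 of 5 genes, while 2.64% of all genes were higher. Pros1 differed by 1.54 (0.82 to 2.26), Mertk by 0.95 (0.51 to 1.38), Axl by 0.80 (0.37 to 1.24) and Tyro3 by 0.70 (0.29 to 1.11). Gas6 differed by -0.06 (-0.42 to 0.29), which did not pass. Added variances overstate the error here because both tables hold the ND samples. In the other differences between tables, 0 of 5 genes passed: D8 minus D6 (0.0229% of all genes called), D10 minus D8 (0.00%), D10 minus D6 (0.0115%), D10 repopulated minus D8 depleted (1.02%), D8 depleted minus D6 (0.302%), the response to repopulation in diabetic minus non-diabetic retina (0.188%) and the response to repopulation minus that to depletion (0.654%). At an unadjusted p under 0.05 the normal test passed 0, 2, 1, 1, 0, 0 and 0 of the 5 genes in these differences, and 7.53%, 1.26%, 7.47%, 13.8%, 7.76%, 3.82% and 11.6% of all genes.

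**Figure D3:**
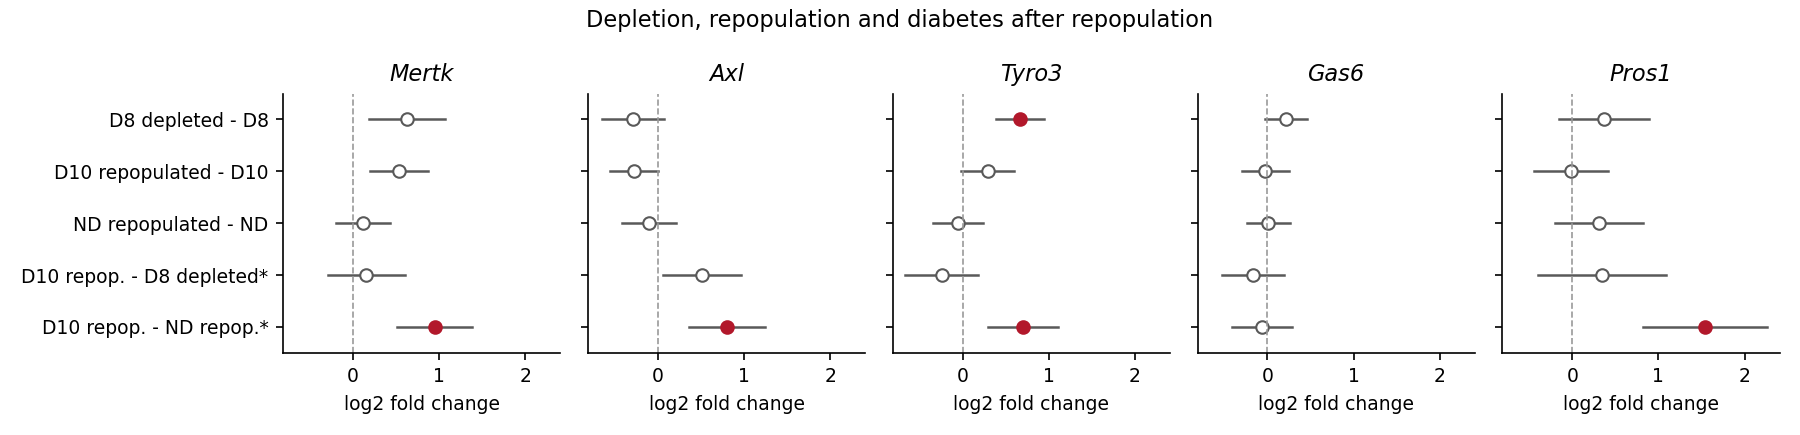
Log2 fold change (horizontal axis) of each TAM gene for depletion and repopulation, with 95% intervals. Rows with an asterisk are differences of 2 tables against ND with variances added, and red points passed an adjusted p of 0.05. Tyro3 is red for depletion at 0.66, and all genes but Gas6 are red in the bottom row.

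The genes around the TAM system were taken from 8 lists with 57 genes, chosen with earlier results of these data known. In D6 against ND 9 rose and 1 fell, in D8 4 rose, and in D10 7 of 56 tested rose. Of all tested genes 14.1% rose and 9.31% fell in D6, 2.33% rose in D8 and 5.59% in D10, and with depletion 5.85% rose and 4.90% fell. The rising share of these lists at D6 was thus near that of all genes, while the falling share, 1 of 57, was below it. With depletion against D8 4 rose and 3 fell of 56, and with repopulation against D10 0 of 54 were called in either direction. Feedback genes of the interferon and STAT pathway had the largest rises. Socs3, an inhibitor of cytokine receptors, rose by log2 2.36, 2.01 and 2.86 at 6, 8 and 10 weeks, and Socs1 by 1.46, 1.50 and 2.15, in the authors' deposited tables. Of the 7 genes of that list 3, 2 and 4 rose at these times.

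Among other routes of phosphatidylserine uptake, 2 of 15 receptors and bridges rose at 6 weeks, 1 of 15 at 8 weeks and 1 of 14 tested at 10 weeks. Of all tested genes 14.1%, 2.33% and 5.59% rose at these times. The median log2 of the list was 0.13, 0.02 and 0.01. Itgav, the integrin chain that binds the bridge MFGE8, rose by log2 0.67, 0.44 and 0.83 in the authors' deposited tables. Mfge8 itself had -0.24, 0.02 and 0.01 there, and none of these was called, per the authors' deposited tables. Adgrb1, the phosphatidylserine receptor BAI1, rose in D8 depleted against D8 by log2 0.47 (0.14; FDR p = 0.0154) in the authors' deposited table. Among the 3 other MERTK ligands, Lgals3 rose there by log2 1.40 (0.34; FDR p = 0.00186) in the authors' deposited table. Against ND, Lgals3 was called neither in D8 depleted (log2 0.83; FDR p = 0.20) nor in D8 (-0.57; FDR p = 0.74) in the authors' deposited tables. Tub and Tulp1 had -0.28 and -0.16 in D8 depleted against D8 in the authors' deposited table and did not pass. Neither sheddase, Adam10 or Adam17, was called in any of the 8 tables.

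Of the signalling genes below the receptors, 2 of 12 engulfment genes fell with depletion against D8 (median log2 -0.15), where 4.90% of all genes fell. These were Vav1, an exchange factor of blood cells, at log2 -3.26 and the adaptor Crk at -0.41, per the authors' deposited table. Of 7 genes of the LXR response to engulfed cholesterol 3, 1 and 1 rose at 6, 8 and 10 weeks (median log2 0.16, 0.11 and 0.11). Abca1, the cholesterol exporter, rose by log2 0.96, 0.58 and 0.92 in the authors' deposited tables. It had 0.00 in D8 depleted against D8, while the receptor genes Nr1h2 and Rxrb rose there, per the authors' deposited table, by 0.34 and 0.39. Of the vitamin K carboxylation genes, Ggcx and Vkorc1 were called in none of the 8 tables and Vkorc1l1 fell in D8 depleted against ND at log2 -0.40 (FDR p = 0.0111) in the authors' deposited table.

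**Figure D4:**
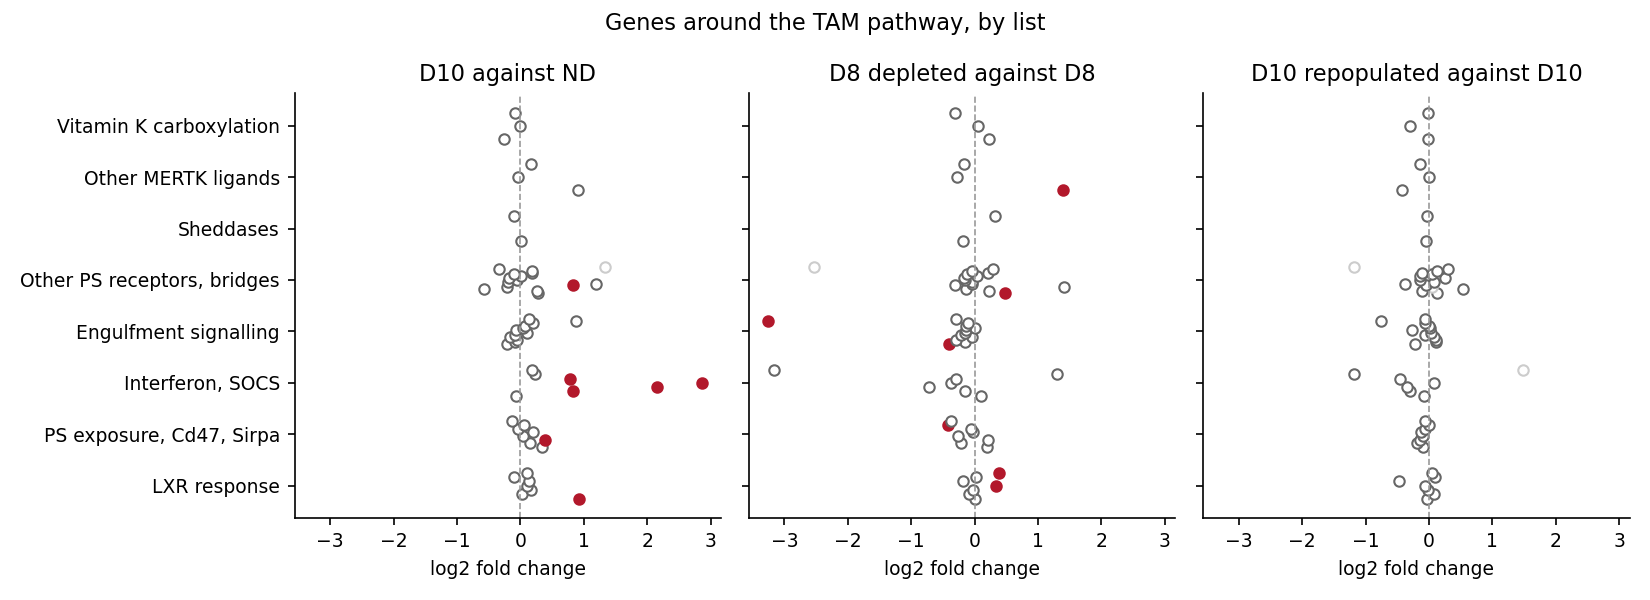
Log2 fold change (horizontal axis) of 57 genes around the TAM system in 8 lists (rows) for D10 against ND, D8 depleted against D8 and D10 repopulated against D10. Red points passed the authors' FDR p-value of 0.05, dark open points did not and pale points had none. The left panel holds 7 red points, the middle panel 7 and the right panel 0.

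The genes whose 8 log2 values lay nearest to those of each called TAM gene were ranked by root mean square difference among 9032 genes of at least moderate level. Tyro3 itself reached that level in all 8 tables, while Mertk, Axl and Pros1 did not. For Tyro3 these were Grk3, Slc19a1 and Aldh6a1, at 0.08, 0.08 and 0.09. For Axl they were Ier3, Ctps and Msn, at 0.12 each. For Mertk they were Ipo9, Slc19a1 and Htra1, at 0.17, 0.17 and 0.18. For Pros1 they were Nfkbia, Fkbp5 and H2-K1, at 0.17, 0.24 and 0.30. Slc19a1, a folate carrier gene, was thus near both Tyro3 and Mertk. The 8 tables share samples, so these distances describe the tables and not 8 independent points.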

How the data were processed

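Poly(A) messenger RNA from mouse retina was read as stranded paired reads, per the labels' protocols. GRCm39 and bcl2fastq are named in the submitters' processing notes. Which aligner, counting tool and test were used, and their versions, is not given in the sources used here. For 25655 genes the authors computed log2 fold changes between 2 groups of libraries and deposited them in 8 tables. The table of D10 against D10 repopulated was turned here. The signal value the authors deposited is the mean of the higher group, without a named unit. Both the p-value and its FDR form are as deposited, and the FDR form equals Benjamini-Hochberg values within 0.000489. No model could be refitted, since values per library, and so depth, were not used here.

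A group's mean was read where the same value recurred in tables sharing that group, otherwise by the sign of the fold change. A mean that was never the larger was implied by the other mean and the fold change, unless their directions differed. Standard errors are the log2 value divided by the normal quantile of p. Differences of 2 tables were tested with a normal test on added variances, adjusted by Benjamini-Hochberg over all genes, and the step was tested on simulated data. Tables of D8 depleted against D8 and D10 repopulated against D10 matched the differences of the ND tables with a median gap of 0.0076 and 0.0042 log2. The text names all 5 members and up to 3 genes per list with the smallest p. Besides these it names Mfge8, Tub, Tulp1 and the marker Ttr, which was picked after values were seen. Members and lists were chosen with earlier results of these data known. Promoters came from RefSeq, GRCm38.p6, where all 5 members matched. Python 3.11.15, numpy 2.4.6, pandas 2.3.3, scipy 1.17.1 and matplotlib 3.10.9 were used.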

Additional observations from a re-analysis of the deposited data

How the results depend on the processing

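With values centred on the median of the genes of higher level no member changed sign in any of the 8 tables, and the shift lay between -0.0112 and 0.0104. A stricter FDR threshold of 0.01 kept all 8 counts of called members within 1.5 times. At 0.10, D8 against ND gave 2 (Axl added) and D8 depleted against D8 2 (Mertk added). D8 depleted against D8 also gave 2 with genes of low level left out and with centring, again with Mertk added. Under the level filter Mertk enters there only through its mean in D8 depleted, so that gain supports nothing, and the same filter dropped Mertk in D10 against ND (2 left of 3) and in D10 repopulated minus ND repopulated (3 left of 4). Asking for an absolute log2 of at least 1 as well left 1 in D6, D10 and D8 depleted against ND (Pros1 in each), 2 in D10 repopulated against ND and 0 in D8 depleted against D8. Bonferroni left 1 in D6, 0 in D8 and 2 in D10 repopulated against ND, and 0 in D8 depleted against D8. For differences between tables, an adjusted p under 0.01 left 2 of 4 in D10 repopulated minus ND repopulated. With errors from a t quantile, which are smaller, 1 gene passed in each of D8 minus D6 (Pros1), D10 minus D8 (Pros1), D10 minus D6 (Axl) and D10 repopulated minus D8 depleted (Pros1), where 0 passed before. With the ND covariance removed, chosen after the data were seen, 1 passed in D10 minus D6 and 1 in D10 repopulated minus D8 depleted (Axl in both). Leaving out single samples was not run, since values per library were not used here. No paired analysis was possible because the result comes from the authors' comparison tables and the labels give no shared replicate numbers. The spread between samples limits precision: a 95% interval of Pros1 against ND spans about 1 log2 unit, and one of Gas6 about 0.5.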
